A study of Mus musculus with 2 samples.

Results

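The genes described here are the kinases of the mitogen-activated protein (MAP) kinase cascade and the dual-specificity phosphatases (DUSP), compared between 1 array of primitive and 1 array of maturing haematopoietic stem cells (HSC). Members were matched by gene symbol, from probe sets with a single symbol: Mapk, Map2k, Map3k, Map4k or Dusp followed by a number, and Mapkapk. They were chosen by this rule with earlier results of these data known. The rule found 53 genes of 12393, read by 93 probe sets. By symbol they formed 6 tiers, with 3 MAP4K, 13 MAP3K, 6 MAP2K, 9 MAPK, 2 MAPKAPK and 18 DUSP genes. The other members were Map2k3os, transcribed from the opposite strand next to Map2k3, and Map3k7cl, a gene named for its similarity to the C-terminal end of Map3k7.

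Both populations were sorted by flow cytometry from untreated mouse bone marrow after 30 min in culture. The primitive cells had kept long-term repopulating activity and the maturing cells had largely lost it, per the labels, which give no strain, age, surface phenotype or number of animals. The RNA of each population was cloned as a PCR-amplified, size-selected cDNA library in phage, and cRNA made from the inserts was hybridised to Affymetrix arrays. Each array therefore reads 1 cloned library. With 1 array per group there was no spread between replicates, no difference could be tested, and the number of arrays limits the precision of every value.

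MAP kinase signalling runs as a relay. MAP4 kinases and small GTPases switch on MAP3 kinases, which phosphorylate MAP2 kinases, which in turn phosphorylate the MAP kinases themselves. The MAP kinases fall into the ERK, JNK and p38 branches, with ERK5 and the atypical ERK3 beside them, and act on transcription factors and on downstream kinases such as those of the Mapkapk genes. Classical DUSP enzymes remove the activating phosphates from MAP kinases and so end the signal. In blood-forming cells these branches carry signals from cytokine receptors and from stress.

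Values are signal intensities. An intensity under 441, the median over both arrays, was treated as a floor. A gene above the floor on only 1 array has a bound, written as at least so many fold, and a gene at the floor on both arrays was not measured. The arrays had the same 2% trimmed mean (1001 and 1000) by the authors' scaling, which hides any difference in the amount of RNA per cell. Of 9 HSC marker genes with a probe set, 6 were above the floor on both arrays. Kit, the stem cell factor receptor (3802 on the primitive and 5053 on the maturing array), and Cd34 (3320 and 6237) were higher in maturing HSC. Procr, the endothelial protein C receptor (11571 and 1895), Slamf1, Gata2 and Thy1 were higher in primitive HSC. Of the rest, Abcg2 (1693 and 352) and Mecom (490 and 390) were above the floor only on the primitive array. Meis1 (59.1 and 1199) was above it only on the maturing array. Markers of other blood cells were present too. The summed intensity of 8 T and natural killer cell markers was 57254 on the primitive and 11837 on the maturing array, with most of the difference from Ccl5 (37795 and 1511) and Cd3d (8673 and 44.2). In that list Nkg7 (6299 and 7933) and Gzmb (727 and 1143) went the other way, and Cd3e and Cd3g were at the floor on both arrays. For 6 neutrophil markers the sum was 89856 and 45038, carried by S100a8, Camp and S100a9, while Ltf (737 and 2284) and Mpo (270 and 2587) went the other way. For 4 B cell markers it was 1477 and 3456, with Cd79a (607 and 493) against the sum. The macrophage sum was 4709 and 2962, with Csf1r (1159 and 1847) against it. The erythroid sum was 2603 and 1497, with Epor (781 and 953) against it. The megakaryocyte sum was 4931 and 5176, with Gp9 (1820 and 40.1) against it. The part of such cells in the values below was not tested, and in sorted populations fewer cells of a type cannot be told apart from less RNA per cell.

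Promoter windows of 300 bases are printed for the members on which the account turns. Mapk14 and Map3k11 had the largest ratio or bound in each direction, Dusp1 read the same on both, and the Map2k3 window also holds the start of Map2k3os. The sequences are from RefSeq (GRCm38.p6), 5′ to 3′ on the gene's strand from 250 bases before to 50 after an annotated start. The Map3k11 window lies inside the gene's span, which begins at 5688411, and does not cover the start of that span. Capitals mark matches on either strand to the letters of 6 motifs: the cyclic AMP response element (CRE) TGACGTCA, AP-1 TGANTCA, the E-box CACGTG, the GC box GGGCGG, an ETS site CCGGAAG and the TATA box TATAAA.
Mapk14 chr17:28691092-28691391 (+ strand): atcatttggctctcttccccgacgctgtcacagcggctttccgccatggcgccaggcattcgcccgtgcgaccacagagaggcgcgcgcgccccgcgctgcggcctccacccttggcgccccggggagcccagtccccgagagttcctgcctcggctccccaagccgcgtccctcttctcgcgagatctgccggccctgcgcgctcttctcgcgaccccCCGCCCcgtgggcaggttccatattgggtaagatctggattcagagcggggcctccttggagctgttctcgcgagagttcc
Map3k11 chr19:5688881-5689180 (+ strand): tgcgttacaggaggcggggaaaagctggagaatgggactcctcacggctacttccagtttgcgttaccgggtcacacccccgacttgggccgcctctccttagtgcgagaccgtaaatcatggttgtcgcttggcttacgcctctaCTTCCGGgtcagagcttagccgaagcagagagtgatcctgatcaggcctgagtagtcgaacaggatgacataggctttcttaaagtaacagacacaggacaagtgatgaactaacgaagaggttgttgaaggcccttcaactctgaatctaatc
Dusp1 chr17:26508423-26508722 (- strand): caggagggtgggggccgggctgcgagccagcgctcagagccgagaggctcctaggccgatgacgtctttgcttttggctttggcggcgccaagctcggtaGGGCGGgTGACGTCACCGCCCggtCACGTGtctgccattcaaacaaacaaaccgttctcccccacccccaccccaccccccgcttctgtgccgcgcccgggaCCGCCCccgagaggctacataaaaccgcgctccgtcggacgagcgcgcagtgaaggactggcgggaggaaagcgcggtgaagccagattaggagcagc
Map2k3 chr11:60931804-60932103 (+ strand): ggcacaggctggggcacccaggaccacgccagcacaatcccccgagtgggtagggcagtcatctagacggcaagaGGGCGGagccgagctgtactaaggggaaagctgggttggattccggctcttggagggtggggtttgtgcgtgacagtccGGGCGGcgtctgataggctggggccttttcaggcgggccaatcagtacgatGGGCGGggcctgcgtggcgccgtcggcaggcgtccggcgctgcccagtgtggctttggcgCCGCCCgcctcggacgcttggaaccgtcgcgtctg
The Dusp1 window held 1 CRE, 1 E-box and 3 GC boxes. Map2k3 held 4 GC boxes, the printed Mapk14 window held 1, and Map3k11 held 1 ETS match. Another Mapk14 window, chr17:28692318-28692617, held no match to the 6 motifs and is not printed. Promoter windows were matched for 45 of the 53 members (59 windows). A GC box was found in 36 of them (61.0%), against 35.9% of all 32544 windows, and a CRE in 3 (5.08%, in Dusp1, Dusp8 and Mapk10) against 1.80%. The AP-1 letters were in 3.39% of member windows and 7.79% of all, the E-box in 8.47% and 7.17%, the ETS letters in 5.08% and 8.91%, and the TATA box in 3.39% and 13.6%. A match is a description of the letters and not a bound site.

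The comparison of primitive with maturing HSC asked how transcripts of the cascade differ between them. Map3k11 and Map3k2 were higher in primitive HSC by at least 4-fold and Mapk14, encoding p38 alpha, was higher in maturing HSC by that much on its brightest probe set. The measured genes of the MAP3K and DUSP tiers were mostly higher in primitive HSC, except under scaling to the hybridisation controls, and those of the MAP4K, MAP2K, MAPK and MAPKAPK tiers mostly higher in maturing HSC. Of the 44 measured members, 23 were above the floor on each array, and 21 of these (91.3%) lay within 2-fold, against 68.5% of all genes above the floor on both. A further 12 members had bounds under 2-fold, whose true difference is open upward. At 4-fold, 2 members (4.55%) were higher in primitive HSC, where 3.45% of all 8852 measured genes were. In the other direction 1 member (2.27%) passed, against 4.69% of all measured genes. At 2-fold the members numbered 4 (9.09%) toward primitive HSC, against 15.6% of all measured genes. Toward maturing HSC they numbered 7 (15.9%), against 17.6%. The shares past 4-fold were thus near the background, and scaling to the hybridisation controls turned the counts of 2 and 1 into 1 and 2. The median log2 ratio of primitive over maturing was 0.15 over the members and 0.07 over all measured genes. Of the measured members 52.3% were higher in primitive HSC, and of all measured genes 52.7%.

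**Figure D1:**
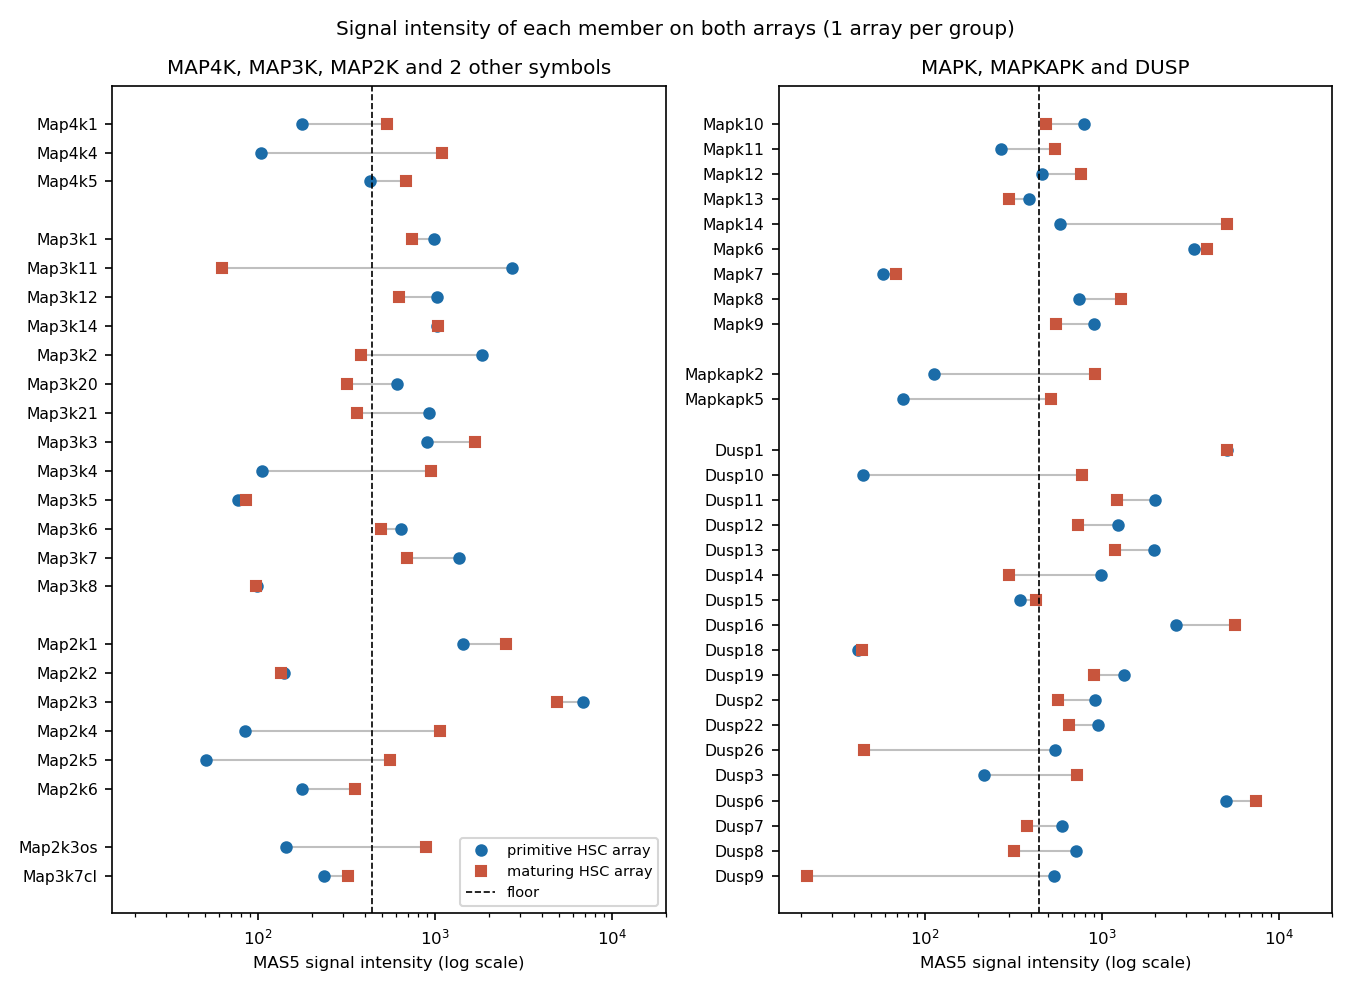
Signal intensity (log axis) of each of the 53 members on the primitive (circles) and maturing (squares) HSC array, grouped by tier, with the floor of 441 as a dashed line. Of the members, 23 lie above the floor on both arrays, 9 only on the primitive array, 12 only on the maturing array and 9 on neither.

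Expression was measurable for a large part of the cascade. Of the 53 members, 44 (83.0%) were above the floor on at least 1 array, against 71.4% of all genes. The 9 members not measured were Map3k5, Map3k8, Map2k2, Map2k6, Mapk7, Mapk13, Dusp15, Dusp18 and Map3k7cl. Bounds made up 47.7% of the measured members and 37.6% of all measured genes. Members above the floor only on the maturing array were 27.3% of those measured (18.5% of all genes), and members above it only on the primitive array were 20.5% (19.1%).

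At the top of the relay, the measured MAP4 kinase genes were all above the floor on the maturing array only. Map4k4, a kinase linked to JNK signalling, read 103 on the primitive and 1095 on the maturing array, which puts it higher in maturing HSC by at least 2.48-fold. Map4k5 read 426 and 686, a bound of 1.56-fold, and its primitive intensity was just under the floor. Map4k1, the haematopoietic progenitor kinase that is found chiefly in blood cells, read 178 and 534, a bound of 1.21-fold. The median log2 ratio over these 3 genes was -0.64, made only of bounds. Of the other Map4k4 probe sets, 3 were at the floor on both arrays.

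The MAP3 kinase genes, which receive the most varied inputs of the cascade, held the members with the largest bounds toward primitive HSC. Map3k11, the mixed-lineage kinase MLK3 that feeds the JNK branch, read 2709 on the primitive and 62.6 on the maturing array. By its only probe set the primitive reading was at least 6.14-fold the higher, and the gene lies on chromosome 19 from 5688411 to 5702865 (GRCm38.p6). Map3k2, a kinase upstream of ERK5 and JNK, read 1847 and 381, a bound of 4.19-fold toward primitive HSC, also by its only probe set. For both genes the maturing array was under the floor, so the size of the difference is open upward.

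Map3k21, another mixed-lineage kinase gene, read 919 and 363, at least 2.08-fold higher in primitive HSC. Map3k7, encoding TAK1, the kinase that transmits inflammatory signals to JNK, p38 and NF-kappaB, read 1364 and 692, or 1.97-fold higher in primitive HSC. Its probe sets disagreed, with log2 ratios of 0.98, -1.06 and a bound of -1.15. Of the remaining genes on the primitive side, Map3k12 was 1.64-fold, Map3k1 1.33-fold and Map3k6 1.29-fold higher there, and Map3k20, encoding the stress kinase ZAK, at least 1.38-fold, a bound. Map3k14, the NF-kappaB-inducing kinase, read 1022 and 1037, which is almost the same on both arrays.

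Apart from the nearly equal Map3k14, 2 of the measured MAP3 kinase genes had lower primitive readings on their brightest probe set. Map3k4, a kinase of the p38 and JNK branches, read 105 on the primitive and 949 on the maturing array, at least 2.15-fold higher in maturing HSC. Its other measured probe set, at 494 and 43.3, gave a bound of 1.12-fold the other way. Map3k3, a kinase upstream of ERK5, read 901 and 1680, or 1.86-fold higher in maturing HSC, while another probe set gave a bound of 1.02-fold the other way. In all, 8 of 11 measured MAP3K genes were higher in primitive HSC, where 52.7% of all measured genes were. Their median log2 ratio was 0.47.

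The measured MAP2 kinase genes read lower on the primitive array, apart from Map2k3. Map2k1, encoding the ERK kinase MEK1, read 1441 on the primitive and 2498 on the maturing array, 1.73-fold higher in maturing HSC, and Map2k2, encoding MEK2, was at the floor on both (139 and 134). Map2k4, an activator of JNK and p38, read 83.6 and 1065, at least 2.41-fold higher in maturing HSC. Map2k5, the activator of ERK5, read 50.4 and 554, a bound of 1.26-fold in the same direction, and its other measured probe set gave 1.06-fold. The median over the 4 measured genes was -0.56.

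Map2k3 and Map2k6 encode the dedicated activators of p38. Map2k3 read 6817 on the primitive and 4868 on the maturing array, 1.40-fold higher in primitive HSC, and Map2k6 was at the floor on both (176 and 352). The Map2k3 probe sets disagreed, because the dimmer set read 698 and 1727, 2.47-fold higher in maturing HSC. Map2k3os starts on the opposite strand of chromosome 11, and the RefSeq spans of the pair are 186 bases apart (60920941 to 60931867 and 60932054 to 60952811). Map2k3os read 144 and 887, a bound of 2.01-fold toward maturing HSC. The promoter window printed for Map2k3 thus covers the starts of genes whose brightest probe sets lay on opposite sides.

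Among the MAP kinases above the floor on both arrays, the value farthest from equal was that of Mapk14, the main p38 gene of most tissues, on chromosome 17 from 28691342 to 28748405. Its brightest probe set read 582 on the primitive and 5108 on the maturing array, 8.78-fold higher in maturing HSC (log2 ratio -3.13). Of its other probe sets, the first read 742 and 369, a bound of 1.68-fold toward primitive HSC, and the next read 874 and 368, a bound of 1.98-fold the same way, while the last was at the floor on both arrays. The difference therefore stood on 1 of 3 measured probe sets, and the median of the 3 was 0.75, toward primitive HSC. The brightest set and the set at 742 and 369 are annotated to the same transcript record.

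The other p38 genes were closer to equal. Mapk12 (p38 gamma) read 459 on the primitive and 768 on the maturing array, 1.67-fold higher in maturing HSC. Mapk11 (p38 beta) read 270 and 544, a bound of 1.23-fold in the same direction, and Mapk13 (p38 delta) was at the floor on both (387 and 299). These genes lie in tandem, Mapk12 beside Mapk11 on chromosome 15 with 904 bases between their spans, and Mapk14 beside Mapk13 on chromosome 17 with 20880 bases between. Over the 4 measured p38 branch genes, Map2k3 among them, the median log2 ratio was -0.52, and -1.72 when the probe sets that may bind more than 1 transcript were dropped. The latter value rests only on the brightest Mapk14 set (-3.13), whose other measured sets went the other way, and the Mapk11 bound (-0.30).

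The JNK genes did not move together. Mapk8 (JNK1) read 744 on the primitive and 1290 on the maturing array, 1.73-fold higher in maturing HSC, with its other probe sets at a bound of -1.57 and a bound of 0.31 on the log2 scale. Mapk9 (JNK2) read 906 and 551, 1.64-fold higher in primitive HSC, with other probe sets at bounds of 1.36 and -1.37. Mapk10 (JNK3), known mainly from the nervous system, read 792 and 482, also 1.64-fold higher in primitive HSC. The probe sets of Mapk8 and of Mapk9 thus lay on both sides of equality. The JNK branch median, with Map2k4, was -0.04, and 0.72 over its 3 genes that had no bound.

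Mapk6, encoding the atypical MAP kinase ERK3, was read brightly on both arrays, at 3343 and 3958, 1.18-fold higher in maturing HSC, and its dimmer probe set gave a bound of 2.09-fold the same way. Mapk7, encoding ERK5, was at the floor on both (58.0 and 69.2). Over Map2k5 and Mapk6 the median was -0.29. The MAPK tier as a whole had 5 of 7 measured genes higher in maturing HSC and a median of -0.30. Of all 8852 measured genes, 4188 were higher in maturing HSC.

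The kinases activated by MAP kinases were above the floor on the maturing array only. Mapkapk2 (MK2), the p38 target that stabilises inflammatory messenger RNAs, read 113 on the primitive and 911 on the maturing array, at least 2.07-fold higher in maturing HSC. Mapkapk5 (PRAK, or MK5), which binds ERK3, read 75.2 and 519, a bound of 1.18-fold. The tier median was -0.64 over the 2 genes.

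**Figure D2:**
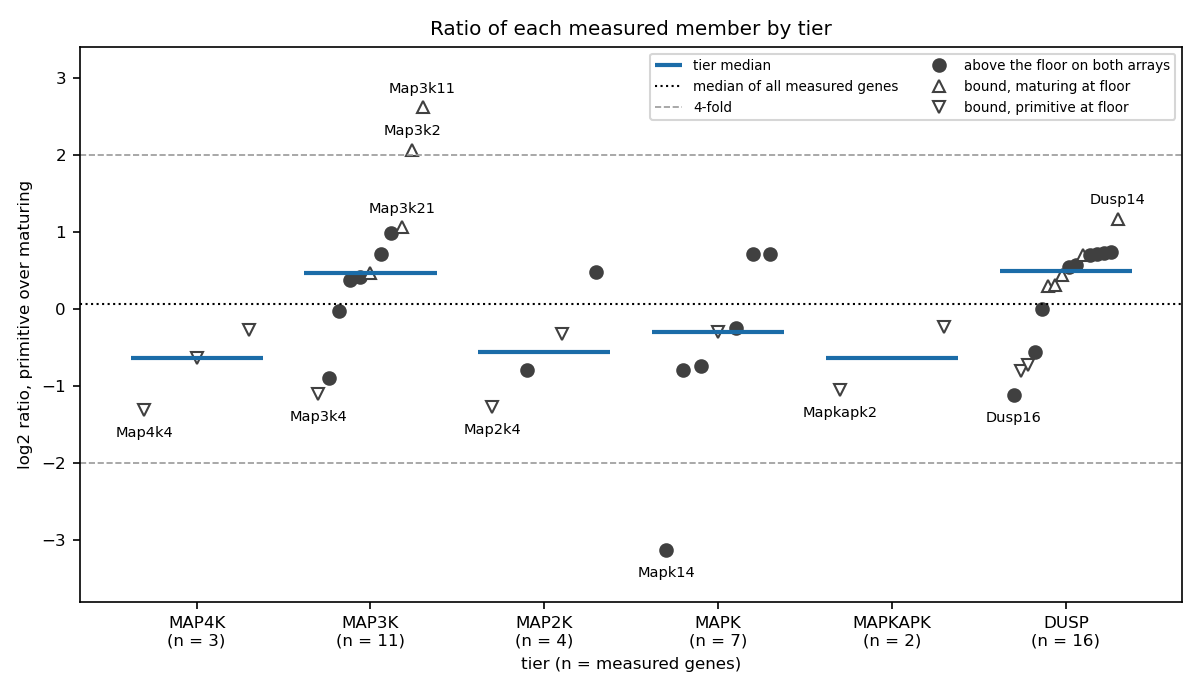
The log2 ratio of primitive over maturing (vertical axis) for each measured member by tier; filled circles are genes above the floor on both arrays, open triangles are bounds, blue bars are tier medians and the dotted line is the median of all measured genes. The MAP3K (0.47) and DUSP (0.49) medians lie above the dotted line at 0.07, and the MAP4K (-0.64), MAP2K (-0.56), MAPK (-0.30) and MAPKAPK (-0.64) medians lie below it.

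Among the phosphatases, 12 of 16 measured genes were higher in primitive HSC (the nearly equal Dusp1 among them), against 52.7% of all measured genes. Of the 9 above the floor on both arrays, 8 lay within 2-fold, and the other 7 genes had bounds, none of them as high as 4-fold but all open upward. The median log2 ratio was 0.49. The classical MAP kinase phosphatases (8 genes, all measured) had a median of 0.15, with 5 higher in primitive HSC, but -0.28 over the 4 above the floor on both arrays. The remaining DUSP genes, 8 measured of 10, had a median of 0.65, with 7 higher in primitive HSC.

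Of the classical phosphatases, Dusp1 (MKP-1), an immediate-early gene induced by stress and growth factors, read 5099 on the primitive and 5096 on the maturing array, so the arrays gave nearly the same reading. Dusp6 (MKP-3), the cytoplasmic ERK phosphatase that ERK signalling itself induces, read 5047 and 7451, 1.48-fold higher in maturing HSC. Dusp16 (MKP-7), a phosphatase of JNK and p38, read 2616 and 5678, 2.17-fold higher in maturing HSC. All of these were far above the floor on both arrays.

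The other classical phosphatases were dimmer. Dusp10 (MKP-5), also directed at JNK and p38, read 45 on the primitive and 772 on the maturing array, a bound of 1.75-fold, with its other probe set at the floor on both. Dusp2 (PAC-1), a nuclear phosphatase known from activated lymphocytes, read 922 and 567, 1.63-fold higher in primitive HSC. The summed intensity of the T and natural killer cell markers was also higher there, carried by Ccl5 and Cd3d, and its part in this value was not tested. Dusp8 read 715 and 319, Dusp7 read 597 and 379 and Dusp9 read 541 and 21.7, bounds of 1.62-fold, 1.35-fold and 1.23-fold toward primitive HSC. For Dusp7 and Dusp9 the other 2 probe sets of each gene were at the floor on both arrays.

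Of the remaining DUSP genes, Dusp14 (MKP-6), an atypical phosphatase that restrains T cell receptor signalling, had the largest bound toward primitive HSC. It read 990 on the primitive and 298 on the maturing array, at least 2.25-fold higher in primitive HSC. Dusp11, which dephosphorylates RNA ends, Dusp12, Dusp13, Dusp19 and Dusp22 had readings above the floor on each array, higher in primitive HSC by 1.45-fold to 1.67-fold. The Dusp19 probe sets gave log2 ratios of 0.57 and 1.15, those of Dusp11 0.72 and 0.34, and those of Dusp12 0.74 and a bound of 0.32, so these genes had agreeing probe sets.

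Dusp26 read 546 on the primitive and 45.5 on the maturing array, a bound of 1.24-fold, and bounds do not order these genes by their true difference. Dusp3 (VHR), an atypical phosphatase of ERK and JNK, read 216 and 728, a bound of 1.65-fold toward maturing HSC. Its other probe set, at 562 and 251, gave a bound of 1.27-fold toward primitive HSC.

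**Figure D3:**
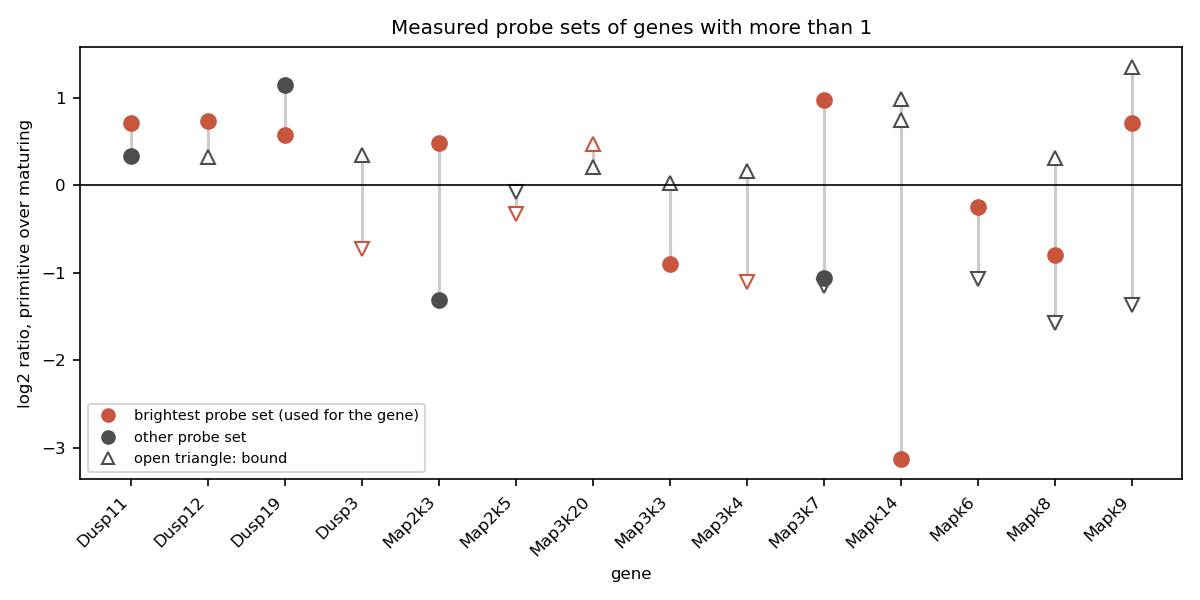
The log2 ratio of primitive over maturing (vertical axis) of every measured probe set for the 14 members with more than 1; the brightest probe set, used for the gene, is in red and bounds are open triangles. For 8 of the 14 genes the probe sets lie on both sides of 0, and Mapk14 spans -3.13 to 0.99.

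Probe sets of a gene often disagreed. Of the 14 members with more than 1 measured probe set, all sets had the same sign in 6 (42.9%), namely Dusp11, Dusp12, Dusp19, Map2k5, Map3k20 and Mapk6, against 55.6% of 2764 such genes on the array. Over all genes with several probe sets above the floor on both arrays, log2 ratios within a gene had an SD of 0.82.

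Each tier kept its side of the median of all genes across the processing choices that gave it a value. The MAP3K and DUSP medians were above the all-gene median in each of the 11 settings tried, although scaling to the hybridisation controls turned the medians themselves negative (-0.26 and -0.40) along with that of all genes (-0.74). The MAP2K and MAPK medians were below the all-gene median in all 11 settings, and the MAP4K and MAPKAPK medians in the 8 and 9 settings that left at least 2 genes. Every MAP4K and MAPKAPK ratio was a bound in the main setting. The setting without bounds gave these tiers no value, so their side was not seen apart from the floor there. The classical phosphatases had no fixed side, above the all-gene median in 6 of 11 settings, while the remaining DUSP genes were above it in all 11. Such agreement describes 1 pair of libraries, whose values all settings share.

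**Figure D4:**
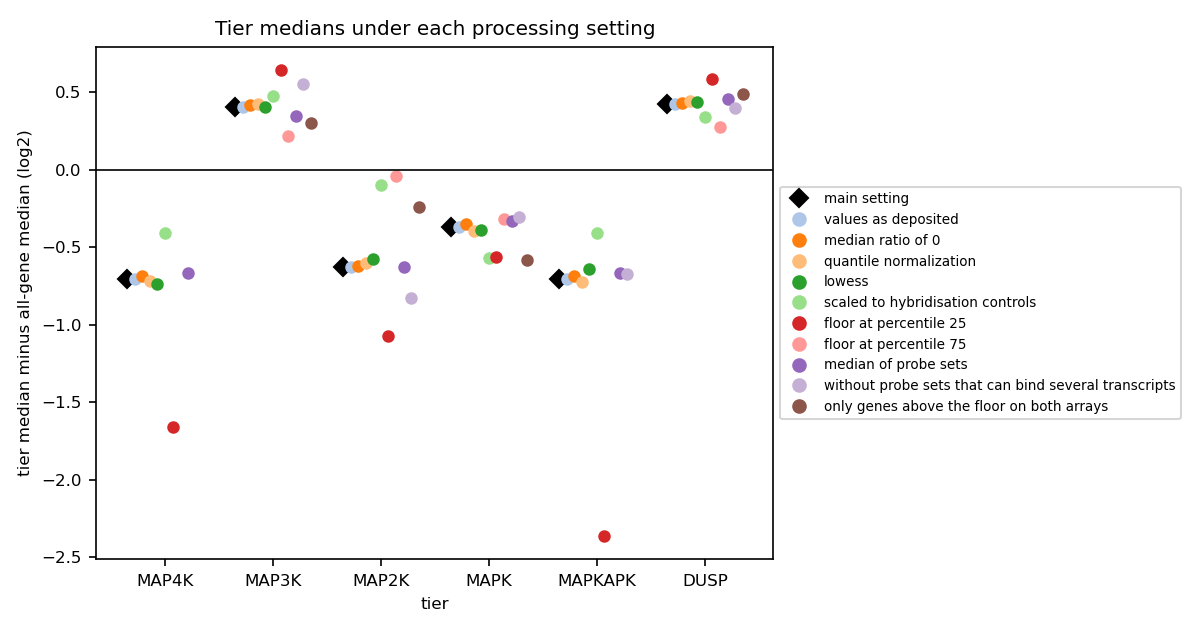
The median log2 ratio of each tier minus that of all measured genes (vertical axis) under the main setting (black diamond) and each alternative (coloured circles). The MAP3K points lie between 0.22 and 0.64 and the DUSP points between 0.27 and 0.59. All points of the other 4 tiers lie below 0, the nearest being a MAP2K point at -0.04.

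Genomic span was set beside the ratios. The median span of measured genes was 14853 bases in the DUSP tier, 32507 in MAPKAPK, 39694 in MAPK, 59979 in MAP3K, 83977 in MAP2K and 89407 in MAP4K (RefSeq spans, GRCm38.p6). Over the 44 measured members, Pearson's r between log2 span and log2 ratio was -0.22 and Spearman's rho was -0.26, across genes that share the same libraries and are not independent replicates. Of the 22 members with the shorter spans, 15 were higher in primitive HSC (median 0.40), and of the 22 with the longer spans, 8 were (median -0.48). The DUSP tier, with the shortest median span, had a median ratio of 0.49, and the MAP2K and MAP4K tiers, with the longest, -0.56 and -0.64. The median span over all measured members was 22232.5 bases. The MAPKAPK and MAP3K tiers were both above it, with median ratios toward maturing and primitive HSC, respectively. Of the members at least 4-fold higher in primitive HSC, Map3k2, with a span of 73663 bases, was among the longer genes. Map3k11, with 14455, was among the shorter ones. The part of span in the tier medians was not tested.

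Around the cascade, a list of 47 other pathway genes was read, from small GTPases to kinases downstream, of which 36 had a probe set with a single symbol and 32 were measured. Their median log2 ratio was -0.43, with 20 higher in maturing HSC, against 4188 of all 8852 measured genes. Past 4-fold lay 1 toward primitive HSC and 2 toward maturing HSC, against the 3.45% and 4.69% of all measured genes given above. Rras, a Ras-related GTPase, read 1862 on the primitive and 281 on the maturing array, at least 4.22-fold higher in primitive HSC. Rap1a, a GTPase of integrin and MAP kinase signalling, read 456 and 4536, 9.95-fold higher in maturing HSC. Rasa2, a GTPase-activating protein that turns Ras off, read 149 and 3104, at least 7.04-fold higher in maturing HSC.

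By role, the 5 measured small GTPase genes had a median of -1.52 with 4 higher in maturing HSC, and the 8 measured inhibitors had -1.06 with 5 higher there, but 0.30 over the 5 inhibitors above the floor on both arrays. Adaptors and exchange factors (7 genes) had a median of -0.27. Scaffolds and partners of the cascade (8 genes) had 0.36, with 5 higher in primitive HSC. The 3 downstream kinase genes, Rps6ka3, Mknk1 and Mknk2, were all higher in maturing HSC, with a median of -0.68, and 2 of them were bounds. Of the Raf-type kinase genes, Araf was measured, at 1076 and 939, while Braf and Mos were at the floor on both arrays. The groups are small, and none of these medians was tested.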

How the data were processed

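Per the submitters' processing notes, the authors made the deposited signal intensities with MAS5 (version not given in the sources used here), which turns the probe pairs of each set into a linear intensity and scales the array. The table held 22690 probe sets, 64 of them controls. Symbols came from the platform annotation (20380 probe sets with 1 symbol, 691 with several, the rest of the non-control sets with none) and were checked by Entrez identifier for 20351, of which 0 changed. Mapkapk5 also shares a probe set with another symbol, which was left out. An item of the list is not reported here.

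The arrays were set to a common 2% trimmed mean, intensities under 441 (percentile 50 over both arrays) were set to that floor, and log2 ratios were taken. Each gene took its brightest probe set by mean intensity. Genes with 1 side at the floor entered medians at their bound. Members at least 2-fold apart, and the MAP kinases with their MAP2 kinases, were named with both readings, and other pathway genes where 4-fold apart. With 1 array per group no test was run. A comparison with protein length was planned and not run, and genomic span was used in its place. The members and lists were chosen with earlier results of these data known. The steps were tested on simulated data. Tools were pandas 2.3.3, numpy 2.4.6 and scipy 1.17.1 in Python 3.11.15, with matplotlib 3.10.9 for figures and statsmodels 0.14.6 for lowess.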

Additional observations from a re-analysis of the deposited data

How the results depend on the processing

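Scaling to the hybridisation controls, whose median log2 ratio was 0.97, moved the median of all genes from 0.07 to -0.74. The medians became -0.74 for all members, -1.15 for MAPKAPK, -1.77 for the JNK branch, -1.03 for Map2k5 and Mapk6 and -1.29 for other pathway genes. Under that scaling 1 member was at least 4-fold higher in primitive and 2 in maturing HSC, and probe sets agreed in 71.4% of members. With the floor at percentile 25, 7 members passed 4-fold toward maturing HSC, and the medians were -1.59 for MAP4K, -2.29 for MAPKAPK and -1.11 for Map2k5 and Mapk6. No member passed toward primitive HSC (0) with the floor at percentile 75, at 8-fold, or when bounds were left out. At 2-fold the counts were 4 and 7. With the median of probe sets, Mapk14 turned to 0.75, 0 members passed toward maturing HSC, and the median of Map2k5 and Mapk6 was -0.43. The remaining 137 medians, percentages and counts moved within the exact 95% binomial interval of a median or percentage, or within 1.5 times a count. For under 6 genes the range was used instead, and it is wide for the JNK and p38 branches. Among the log2 ratios of named genes, 16 further values were counted as moved, all with another floor or under scaling to the hybridisation controls. With the floor at percentile 75, the log2 ratio was 1.40 for Map3k11, 0.85 for Map3k2, -0.05 for Map2k4 and -0.09 for Map4k4. With the floor at percentile 25 it was 4.27 for Map3k11 and -2.96 for Map4k4. The cause was not tested. MAP4K and MAPKAPK had no value without bounds, and no tier or branch median was taken over fewer than 2 genes. No paired analysis was possible because each group has 1 array.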
